A study of Rattus norvegicus with 210 samples.

Results

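The preoptic area (POA) of vehicle-exposed female rats was compared between adulthood, at postnatal day (PND) 90, and PND42, which the study places after puberty. The 10 members are the 5 POA libraries labelled control at PND90 and the 5 labelled control at PND42, out of 210 libraries, and they were taken by their labels alone. All 10 came from Sprague-Dawley females whose dams had received corn oil by gavage every day from gestation day (GD) 7 to birth and again up to PND22, so that the offspring were exposed through their dams only. The PND42 and PND90 rats were different animals, 5 per age, each giving 1 library of polyadenylated RNA. The stage of the estrous cycle of these sequenced rats was not given in the sources used here. The study names diestrus for the PND90 rats in which it measured hormone release from the hypothalamus. The whole series holds 7 groups (control, 3 doses of ketoconazole and 3 doses of diethylstilbestrol, DES) at 3 ages in the POA and the mediobasal hypothalamus (MBH), and was made to ask how perinatal exposure alters the hypothalamic transcriptome.

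The POA lies in front of the hypothalamus proper and holds most of the neurons that secrete gonadotropin-releasing hormone, together with neurons that sense sex steroids, temperature and osmolality. Its axons are wrapped in myelin, a membrane stack made by oligodendrocytes that is rich in cholesterol and in galactolipids. Oligodendrocytes arise from dividing precursors through a short-lived newly formed stage, and the brain makes nearly all of its cholesterol itself, through the mevalonate pathway. Between puberty and adulthood the wiring of this circuit is completed and ovarian cycles are established.

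The 5 PND42 libraries held between 15592294 and 16979710 reads counted on genes and the 5 PND90 libraries between 16856857 and 20687509. Levels are given as CPM, the counts of a gene per 1000000 counts of its library, and fold changes are log2 values of PND90 over PND42 from edgeR's quasi-likelihood test, with a standard error (SE) and a Benjamini-Hochberg adjusted p over all genes tested. Called genes are those with an adjusted p under 0.05. An age profile was scored as the mean log2 level of 100 genes higher at PND22 minus that of 100 genes higher at PND90, chosen in POA libraries of DES rats, none of which is a member. The score was -0.934 to -0.312 in the PND42 members and -1.8 to -1.12 in the PND90 members, against 0.859 to 1.34 in POA controls at PND22, so the members followed the order of their age labels. The MBH did not: the 5 control libraries labelled MBH PND90 scored 0.962 to 1.38, as high as the 5 labelled MBH PND22 (0.94 to 1.26), whereas those labelled MBH PND42 scored -0.647 to -0.133. Every value below that involves the libraries labelled MBH PND90 rests on this.

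The dissected tissue carried the markers of the POA. Lhx6, a transcription factor of ventral forebrain neurons, was at 2.47 to 16.4 CPM in the 10 members and at 0.291 to 0.981 CPM in the MBH controls of all ages. Pmch, the melanin-concentrating hormone gene of the lateral hypothalamus, was at 1.64 to 141 CPM in the members and at 823 to 1760 CPM in those MBH controls. PND90 replicate 3 stood apart in the transcripts of neighbouring regions. Its summed CPM over the septum and basal forebrain list was 713, against 206 to 405 in the other PND90 members, and over the cortex and hippocampus list 734, against 372 to 517. PND90 replicate 2 had a summed lateral hypothalamus level of 149 CPM, against 7.12 to 10.95 CPM in the other PND90 members. In PND42 replicate 3 that level was 52.2 CPM, against 7.89 to 13.95 CPM in the other PND42 members. PND42 replicate 5 had a summed meninges and fibroblast level of 299, against 996 to 1719 in the other PND42 members. In bulk tissue, fewer cells of a type and less RNA per cell cannot be told apart.

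Of 14419 genes tested, 946 (6.56%) were called. More genes were higher at PND90, 596 (4.13%), than lower, 350 (2.43%), and most differences were small, with a median absolute log2 fold change of 0.48 among the called genes. By more than 2-fold, 63 called genes were higher and 47 lower. Among called genes with a mean above 100 CPM at the age where they were higher, the balance was more even, with 121 higher and 110 lower. In 775 of the 946 called genes, all 5 PND90 values lay on one side of all 5 PND42 values; over all genes tested this held for 1173 (8.14%). The ages also separated as whole transcriptomes, with a pseudo-F of 2.24 over the 500 most variable genes (exact permutation test of the age labels, p = 0.0317). This p passed 0.05 when 1 library was left out in 3 of 10 cases, at 0.0556 without PND42 replicate 4, 0.0635 without PND90 replicate 1 and 0.0714 without PND90 replicate 5. The number of calls depended on single libraries. It was 445 without PND42 replicate 1, 563 without PND42 replicate 2, 610 without PND90 replicate 4 and 609 without PND90 replicate 5, and it rose to 1241 without PND90 replicate 3.

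**Figure D1:**
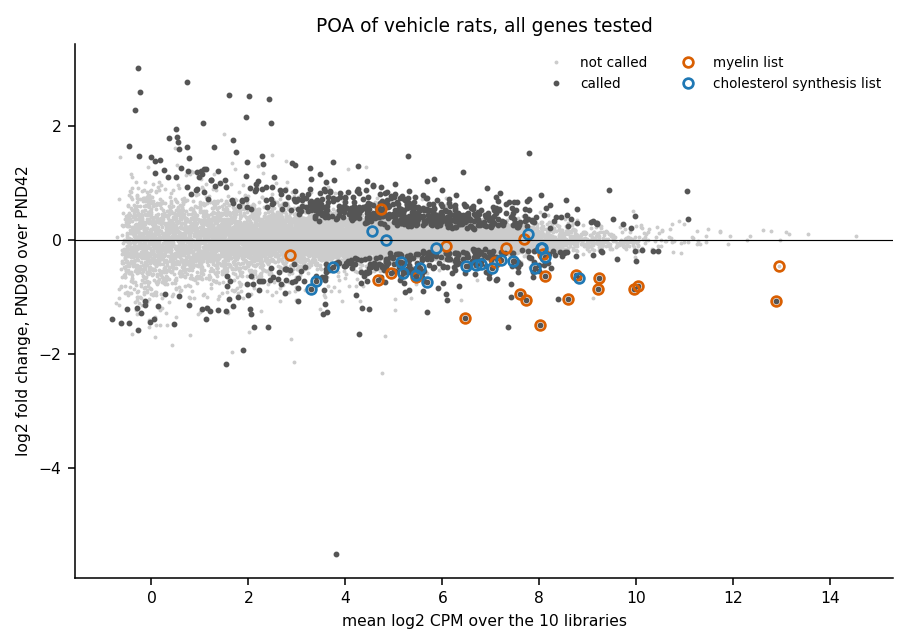
Log2 fold change of PND90 over PND42 (vertical axis) against the mean log2 CPM over the 10 libraries (horizontal axis) for the 14419 genes tested, with called genes in dark grey and the members of the myelin and cholesterol synthesis lists circled. The circled genes lie mostly below 0, and the called genes above 0 with the largest changes sit at low levels on the left.

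Genes of myelin fell together. Of 24 listed genes 23 were tested. Of these, 15 fell (65.2%, against 2.43% of all genes tested), none rose and 8 were not called. The median log2 fold change of the list was -0.66, against 0.00 over all genes. The summed level of the list went from between 25600 and 29020 CPM at PND42 to between 13950 and 18290 CPM at PND90, without overlap. Both the structural proteins and the enzymes that make myelin lipids were among them. Of 14 tested markers of the thalamus, a neighbouring region, 12 also had negative log2 fold changes (median of the list -0.81), and the only 1 called was higher. Their summed level was 902 to 1618 CPM at PND42 and 687 to 1079 CPM at PND90. Those ranges overlapped, with PND90 replicates 3 and 4 within the PND42 range, whereas the summed myelin level did not overlap. The part of thalamic tissue in the myelin difference was not tested.

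Fa2h hydroxylates the fatty acids of myelin galactolipids. It stood at 152, 116, 122, 117 and 135 CPM at PND42 and fell to 45.3, 48.4, 54.0, 54.1 and 45.1 CPM at PND90 (log2 fold change -1.38 ± 0.09, SE, n = 5 per age, edgeR adjusted p = 1.28e-05). The lowest PND42 value lay far above the highest PND90 value. Ugt8 makes the galactolipid galactosylceramide itself. Its 5 values went from between 343 and 456 CPM to between 103 and 170 CPM, a log2 fold change of -1.50 ± 0.12 (edgeR adjusted p = 4.15e-05). Opalin, a membrane protein of oligodendrocytes, went from 242 to 344 CPM at PND42 to 120 to 146 CPM at PND90 (log2 fold change -1.05 ± 0.10).

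Cnp (-0.86), Mog (-0.96), Cldn11 (-1.04), Mal (-0.87), Mobp (-0.81) and Mag (-0.63), all proteins of the myelin sheath, fell by these log2 fold changes. The connexin Gjb1 (-0.71), Nfasc (-0.67), Apod (-0.64) and Aspa (-0.59) fell as well. Mbp, the basic protein of the sheath, was at 8314 to 11125 CPM at PND42 and at 5058 to 8195 CPM at PND90. Its log2 fold change of -0.47 ± 0.14 was not called (edgeR adjusted p = 0.0642). The transcription factors that define the lineage gave log2 fold changes near 0, with -0.10 for Sox10 and -0.15 for Myrf, neither called. A wider fit lowered this count: with 1 fit over all 21 POA groups, 6 myelin genes were called lower in place of 15, whereas leaving out any 1 of the 10 libraries gave between 15 and 16.

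**Figure D2:**
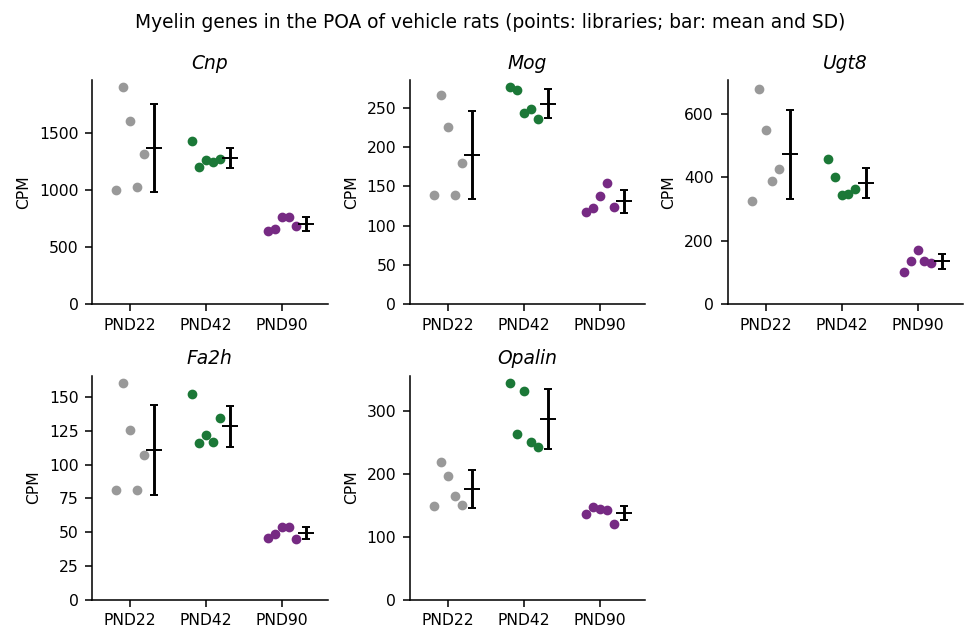
CPM of 5 myelin genes in each POA library of vehicle rats at PND22, PND42 and PND90 (5 libraries per age), with the mean and SD beside the points. In all 5 panels the PND90 points lie below all PND42 points, and Ugt8 at PND22 spans 325 to 677 CPM.

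At PND22 the levels of these genes spread widely between libraries. Fa2h had a median of 107 CPM there (range 81 to 160) and Ugt8 426 CPM (325 to 677). The PND22 controls include a library, replicate 4, with transcripts at MBH levels, such as Pmch at 1400 CPM. The median PND22 level was above the median PND90 level for each of Fa2h, Ugt8, Cnp, Mog and Opalin.

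Genes of the cells that precede the myelinating stage moved in fewer cases. Of 18 tested genes of oligodendrocyte precursors and newly formed oligodendrocytes, 3 fell (16.7%, against 2.43% of all genes tested) and none rose. Their median log2 fold change was -0.09. Enpp6, a phosphodiesterase that marks newly formed oligodendrocytes, was at 15.9, 19.1, 15.9, 14.8 and 16.6 CPM at PND42 and at 7.64, 6.41, 7.53, 3.40 and 8.11 CPM at PND90 (log2 fold change -1.30 ± 0.19, edgeR adjusted p = 0.0023). Gpr17, a receptor of the same stage, went from 36.9 to 53.0 CPM to 24.2 to 29.5 CPM (log2 fold change -0.75 ± 0.09). The kinase gene Fyn fell by 0.23 on the log2 scale. Pdgfra, the growth factor receptor of precursors, gave -0.26 and was not called (edgeR adjusted p = 0.059), and Olig1, Olig2, Cspg4 and Sox6 were not called either. Mki67, a marker of dividing cells, was at 2.42 to 3.66 CPM at PND42 and 0.822 to 1.74 CPM at PND90 (log2 fold change -1.39 ± 0.23). It was the only gene called of 23 tested cell division genes (4.35%, against 2.43% of all genes tested called lower). Of the 23, 21 had a negative log2 fold change. Enpp6 and Gpr17 had been higher still at PND22, at medians of 29.8 and 111 CPM.

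Cholesterol synthesis genes fell as a group as well. Of 23 tested genes of the list, 17 fell (73.9%, against 2.43% of all genes tested) and none rose. The median log2 fold change was -0.45. In 18 of the 23, the PND90 values lay wholly below the PND42 values, against 513 (3.56%) of all genes tested. The summed level went from between 3106 and 3378 CPM to between 2298 and 2576 CPM. Hmgcs1, which makes HMG-CoA at the head of the pathway, was at 617, 555, 543, 505 and 558 CPM in the PND42 members. In the PND90 members it was at 357, 373, 337, 328 and 334 CPM, below all of them (log2 fold change -0.68 ± 0.06, edgeR adjusted p = 6.02e-05). Idi1, the isopentenyl-diphosphate isomerase, went from 58.3 to 67.3 CPM to 33.5 to 44.0 CPM (log2 fold change -0.75 ± 0.08). The lanosterol demethylase gene Cyp51 fell by 0.50 on the log2 scale. Of the late sterol steps, Hsd17b7 (-0.86 ± 0.15), Tm7sf2 (-0.72 ± 0.11), Lss (-0.61), Dhcr7 (-0.59), Nsdhl (-0.50), Ebp (-0.48) and Msmo1 (-0.37) fell too.

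The sterol sensor gene Insig1 (-0.43) fell with them, and so did Sqle (-0.45), Fdft1 (-0.38) and Acat2 (-0.39). The 6 genes not called were Fdps (-0.14), Sc5d (-0.15), Pmvk (-0.15), Mvk (0.00), Mvd (0.15) and Srebf2 (0.09), the last encoding the transcription factor of the pathway. The changes were modest: tested against a fold change of 1.2 in place of 1, 8 genes of the list were called lower.

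**Figure D3:**
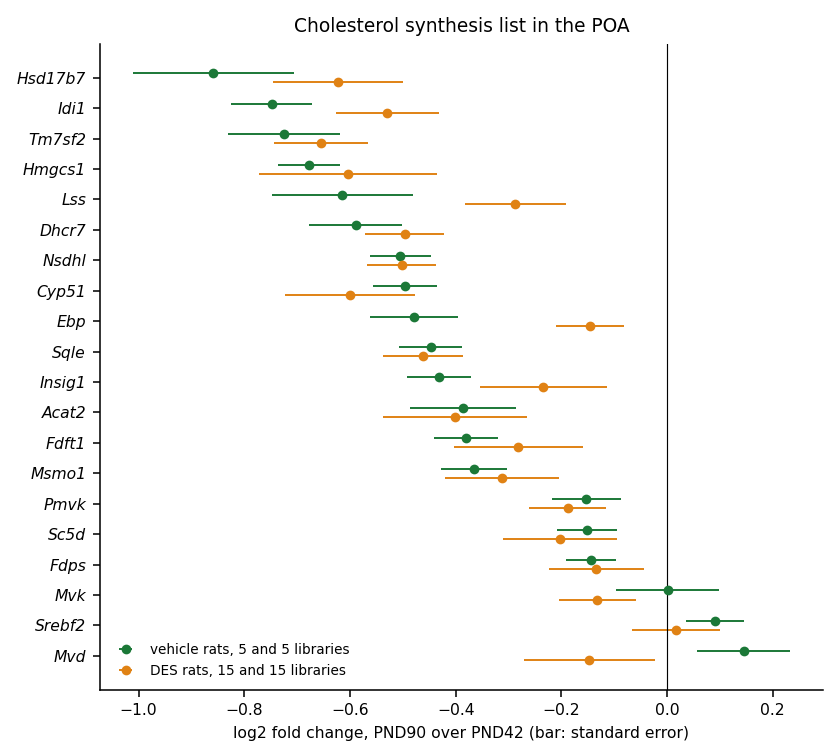
Log2 fold change of PND90 over PND42 for 20 of the 23 tested genes of the cholesterol synthesis list, in vehicle rats (5 and 5 libraries) and in DES rats (15 and 15 libraries, 3 doses averaged), with standard errors as bars. In vehicle rats 17 of the 20 points lie below 0, down to -0.86 for Hsd17b7. The DES libraries include D6 replicate 2 at PND90, which carries pituitary transcripts.

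The start regions of these genes are shown because the genes moved together. The promoters of sterol genes are known for sterol regulatory elements and for CCAAT boxes, which nuclear factor Y binds. Below are the 200 bases before the annotated start of the 3 list members with the smallest p that have an entry in RefSeq (rat assembly GRCr8, a different build from the one the reads were aligned to), 5′ to 3′ on the gene's strand, with CCAAT or its reverse complement ATTGG in capitals. They are chr2:53382104-53382303 (plus strand) for Hmgcs1, chr17:66547525-66547724 (minus strand) for Idi1 and chrX:155817160-155817359 (plus strand) for Nsdhl.
Hmgcs1: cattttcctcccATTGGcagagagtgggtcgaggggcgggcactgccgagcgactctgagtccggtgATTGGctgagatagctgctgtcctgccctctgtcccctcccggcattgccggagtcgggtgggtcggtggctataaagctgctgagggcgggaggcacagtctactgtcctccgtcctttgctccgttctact
Idi1: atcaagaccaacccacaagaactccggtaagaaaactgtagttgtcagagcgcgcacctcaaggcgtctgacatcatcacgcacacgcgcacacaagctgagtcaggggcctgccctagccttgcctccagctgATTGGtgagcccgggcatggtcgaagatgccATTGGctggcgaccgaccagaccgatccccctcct
Nsdhl: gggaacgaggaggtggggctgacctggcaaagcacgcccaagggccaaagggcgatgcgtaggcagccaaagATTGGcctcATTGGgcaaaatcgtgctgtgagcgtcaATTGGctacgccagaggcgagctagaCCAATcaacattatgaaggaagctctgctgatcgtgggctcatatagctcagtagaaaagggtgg

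A window was found for 17 of the 23 tested members of the list, and for 10646 of 14392 tested symbols. CCAAT, on either strand, was in 14 of the 17 windows (82.4%), against 30.9% of the windows of all genes tested and 29.4% of all 27457 RefSeq windows. It was in 9 of the 12 windows of members that fell and in all 5 windows of members that were not called. The letters TCACNCCAC, a form of the sterol regulatory element, were in none of the 17 and in 0.817% of the windows of genes tested. Of the myelin list, 16 of 23 members had a window, and ACAAAG, a core bound by SOX factors, was in 5 of them (31.2%), against 8.79% over all genes tested. No CCAAT match can overlap an ACAAAG match, on either strand. A match is a description of the letters only.

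The 10 called genes with the largest falls, among genes with a symbol, no overlap between the ages and a mean log2 CPM not under 1, were Alox15, Hbb, Atp10b, Ugt8, Mki67, Fa2h, Enpp6, Rtkn2, Pnlip and Sgk2. Their log2 fold changes lay between -1.93 and -1.26. Alox15, a lipoxygenase of polyunsaturated fatty acids, was at 4.55, 8.54, 5.91, 6.39 and 3.72 CPM at PND42 and at 1.01, 2.17, 0.771, 1.95 and 1.63 CPM at PND90 (log2 fold change -1.93 ± 0.29, edgeR adjusted p = 0.00278). At PND22 it had been at 28.6 to 63.1 CPM, so its levels at the 3 ages did not overlap. In 9 of these 10 genes the PND22 mean was above the PND42 mean; the exception was Fa2h. Hbb, a hemoglobin chain, went from 167 to 376 CPM to 54.5 to 118 CPM (log2 fold change -1.53 ± 0.25). In all, 5 of 7 tested blood genes fell (71.4%, against 2.43% of all genes tested). The summed level of the list was 398 to 874 CPM at PND42 and 152 to 345 CPM at PND90. Hemoglobin genes have near-identical copies, so their single values are uncertain.

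The 10 genes with the largest rises by the same rule were Moap1, Tmprss9, Rps4y2, Scand1, Rpl36, Bola1, H1f10, Camk2n2, Hes5 and Vbp1. Their PND90 means were up to 57.0 CPM. Moap1, a modulator of apoptosis, was at 1.15, 1.47, 1.23, 0.930 and 1.98 CPM at PND42 and at 4.21, 3.95, 6.11, 7.40 and 8.32 CPM at PND90 (log2 fold change 2.15 ± 0.28, edgeR adjusted p = 0.00106). Hes5, a target of Notch signalling, went from 3.27 to 5.70 CPM to 6.70 to 14.6 CPM (log2 fold change 1.31 ± 0.23). Rpl36 and Rps4y2, ribosomal protein genes with many near-identical copies, are uncertain. In all 10 genes the PND22 mean was also above the PND42 mean, so that PND42 had the lowest of the 3 means. Moap1, for instance, was at 3.87 ± 0.72 CPM (SD, n = 5) at PND22.

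A different course was seen for Qdpr, the dihydropteridine reductase that regenerates tetrahydrobiopterin and is abundant in oligodendrocytes. It rose from 181, 192, 207, 180 and 198 CPM at PND42 to 327, 316, 340, 329 and 333 CPM at PND90, with little spread at either age (log2 fold change 0.79 ± 0.06, edgeR adjusted p = 2.65e-05). At PND22 it was at 92.2 to 104 CPM. C3, the central complement protein, rose likewise from 11.5 to 17.3 CPM to 19.4 to 36.5 CPM (log2 fold change 1.02 ± 0.17), after 2.51 to 6.56 CPM at PND22. It was 1 of 2 called genes among 19 tested microglia and complement genes; the other was C1qc, a subunit of complement C1 (log2 fold change 0.86 ± 0.20), whose call was lost in 4 of the 10 fits without 1 library. These 2 genes are 10.5% of the list, against 6.56% of all genes tested, and 15 of its 19 log2 fold changes were positive.

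In the gonadotropin network 2 of 17 tested genes rose (11.8%, against 4.13% of all genes tested) and none fell, with a median log2 fold change of 0.45 and 13 values above 0. Kiss1r, the kisspeptin receptor carried by gonadotropin-releasing hormone neurons, was at 3.34, 2.47, 2.95, 3.16 and 3.10 CPM at PND42 and at 5.80, 6.61, 4.33, 5.35 and 5.53 CPM at PND90. The ages did not overlap (log2 fold change 0.89 ± 0.15, edgeR adjusted p = 0.00483), and the call held in all 10 fits that left out 1 library. At PND22 Kiss1r was at 3.93 to 4.76 CPM, above all PND42 values and overlapping the PND90 values. Cartpt, a neuropeptide precursor, was called (log2 fold change 0.89 ± 0.24, edgeR adjusted p = 0.0455), but its ages overlapped, and leaving out 1 library ended the call in 8 of 10 cases. Its highest value, 41.1 CPM, was in PND90 replicate 2, the member with high lateral hypothalamic transcripts. The part of the dissection in the Cartpt difference was not tested.

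Gnrh1 itself was at 8.02, 7.95, 7.01, 10.1 and 9.30 CPM at PND42 and at 24.6, 6.12, 10.1, 13.7 and 25.2 CPM at PND90. Its level varied widely between the PND90 members, and the log2 fold change of 0.93 ± 0.33 was not called (edgeR adjusted p = 0.124). Kiss1 was at 0.449 to 3.04 CPM at PND42 and at 1.84 to 11.0 CPM at PND90, with the highest value in replicate 1 alone (log2 fold change 1.35 ± 0.55, adjusted p = 0.175 by edgeR). Tac3, the neurokinin B gene, was at 20.5 to 26.3 CPM and at 24.2 to 49.4 CPM (log2 fold change 0.66 ± 0.19, adjusted p = 0.0536 by edgeR). Its receptor gene Tacr3 was at 9.42 to 14.2 CPM and at 8.44 to 16.6 CPM (log2 fold change -0.07 ± 0.19).

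Of 16 tested sex steroid receptors and coregulators, 2 rose (12.5%, against 4.13% of all genes tested) and none fell. Esr1, the main estrogen receptor of the POA, was at 17.2 to 33.4 CPM at PND42 and 16.1 to 38.4 CPM at PND90, with a log2 fold change of 0.00 ± 0.22. Pgr, the progesterone receptor, was at 9.30 to 15.2 CPM and at 9.26 to 20.8 CPM and was not called (log2 fold change 0.49 ± 0.19, adjusted p = 0.148 by edgeR). Esr2 (-0.21 ± 0.23) and the aromatase gene Cyp19a1 (0.23 ± 0.29) were not called. Among 14 tested genes of steroid synthesis, Tspo, a protein of the outer mitochondrial membrane, rose (0.91 ± 0.20) and Srd5a1, the 5-alpha-reductase, fell (-0.42 ± 0.09). These 2 genes are 14.3% of the list, against 6.56% of all genes tested.

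**Figure D4:**
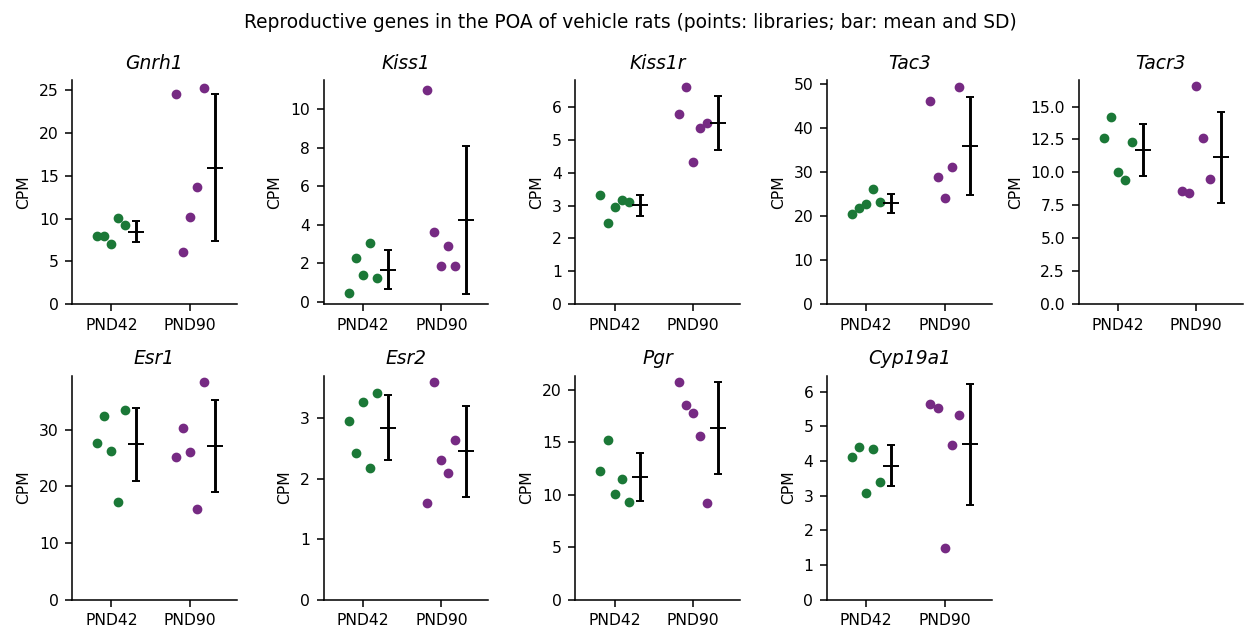
CPM of 9 reproductive genes in each POA library of vehicle rats at PND42 and PND90 (5 libraries per age), with the mean and SD beside the points. Kiss1r is the panel in which the ages do not overlap, and Gnrh1 at PND90 spreads from 6.12 to 25.2 CPM.

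Of 28 tested neuropeptide and marker genes of the POA, 3 rose (10.7%, against 4.13% of all genes tested) and none fell, with a median log2 fold change of 0.25. Oxt, the oxytocin gene, was at 111, 40.5, 155, 86.7 and 178 CPM at PND42 and at 387, 477, 90.7, 323 and 359 CPM at PND90. Replicate 3 lay within the PND42 range and the other 4 lay above it (log2 fold change 1.52 ± 0.42, edgeR adjusted p = 0.048). Leaving out 1 library ended this call in 8 of 10 cases. Replicate 3 is the member with high septal and cortical transcripts. Its summed supraoptic and paraventricular level was 215 CPM, against 587 to 979 CPM in the other PND90 members. The highest Oxt value, 477 CPM, was in replicate 2, the member with high lateral hypothalamic transcripts. The part of the dissection in the Oxt difference was not tested. Hmx3 and Hmx2, homeobox genes of preoptic and tuberal neurons, rose from means of 0.923 and 0.808 CPM to 2.14 and 1.74 CPM (log2 fold changes 1.21 ± 0.30 and 1.11 ± 0.29), and their calls were lost in 6 and 7 of those 10 fits. The arcuate list shares Cartpt, Kiss1, Tac3 and Prlr with the gonadotropin network. It summed to 43.0 to 51.1 CPM at PND42 and 49.3 to 95.9 CPM at PND90. Of its 8 tested genes, Pomc and Cartpt rose (25.0%, against 4.13% of all genes tested). Pomc, the precursor of melanocortins and a pituitary transcript as well, went from between 0.248 and 0.744 CPM to between 0.937 and 3.00 CPM (log2 fold change 1.94 ± 0.36, edgeR adjusted p = 0.00781). In DES rats, without a library that carries pituitary transcripts (D6 replicate 2 at PND90), its log2 fold change was -0.40 ± 0.46. That change was not called (edgeR adjusted p = 0.602). Prl was at 0 to 0.372 CPM at PND42 and at 0.0493 to 26.2 CPM at PND90, and its part in the Pomc difference was not tested. Galanin, vasopressin, somatostatin and thyrotropin-releasing hormone genes were tested and not called.

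Of 25 tested collagen and basement membrane genes, 4 fell (16%, against 2.43% of all genes tested) and none rose (median log2 fold change -0.23). The summed level of the list overlapped between the ages, and its median was higher at PND90. It was 3037 to 3589 CPM at PND42 (median 3314) and 2417 to 4306 CPM at PND90 (median 3625). Col4a1, the main collagen of vascular basement membranes, went from 48.7 to 57.5 CPM to 35.3 to 42.2 CPM without overlap (log2 fold change -0.46 ± 0.07). Eln (-1.65 ± 0.33), Nid1 (-0.92 ± 0.16) and Lama4 (-0.41 ± 0.09), encoding elastin, nidogen and a laminin chain, fell as well. All 15 tested meningeal and fibroblast markers had negative log2 fold changes (median -0.91) and none was called. Their summed level ranged from 299 to 1719 CPM at PND42 and from 206 to 1120 CPM at PND90. Of 16 tested markers of endothelium and mural cells, 14 had negative log2 fold changes (median -0.33) and 1 was called, lower, with summed levels of 382.5 to 457 CPM at PND42 and 322 to 434 CPM at PND90. The parts of meninges and of vessels in these differences were not tested. Without PND42 replicate 5 and PND90 replicate 3 together, a choice made after the data were seen, 1200 genes were called, 16 of them myelin genes and 16 cholesterol genes, all lower.

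The shares called in the other lists lay on both sides of the 6.56% of all genes tested. Astrocyte genes gave 3 rises of 19 tested (15.8%), Fgfr3 (0.57 ± 0.12), Slc4a4 (0.33 ± 0.08) and Glul (0.37 ± 0.10), the last being glutamine synthetase. The calls of Slc4a4 and Glul were each lost in 6 of the 10 fits without 1 library. Of 24 GABA genes 2 rose (8.33%): Slc32a1, the vesicular GABA transporter (0.67 ± 0.13), and Abat, which degrades GABA (0.33 ± 0.08, lost in 6 of those 10 fits). Of 20 immature neuron genes 4 were called (20%): Tuba1a (-0.37 ± 0.05), Stmn4 (-0.42 ± 0.07) and Nrep (-0.49 ± 0.13) fell and Marcksl1 (0.62 ± 0.16) rose. The calls of Nrep and Marcksl1 were each lost in 7 of those 10 fits. Adamts4, an aggrecan-cleaving protease also made by oligodendrocytes, fell (-0.84 ± 0.13). It was the only called gene of 20 in the perineuronal net list (5.0%). Among 20 DNA methylation and Polycomb genes, Sirt2 fell (-0.49 ± 0.06) and 1 gene rose (10% called). Sirt2 encodes a deacetylase abundant in oligodendrocytes. Grik5 (0.28 ± 0.06) was 1 of 30 glutamate genes called, a share of 3.33%. Ier5 (0.40 ± 0.11, edgeR adjusted p = 0.0496) was 1 of 24 immediate early genes called (4.17%), and this call was lost in 9 of those 10 fits. By edgeR, none of 19 clock genes, 25 interferon and MHC class I genes or 20 thyroid and glucocorticoid response genes was called.

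The same ages can be compared in rats that share no library with these members. Ketoconazole rats were left out of this comparison. Most of their POA libraries at PND90 were known from earlier results to carry transcripts of the mammillary region. In DES rats, whose dams had received 3, 6 or 12 µg/kg per day, 15 POA libraries at PND90 were set against 15 at PND42, and 1294 of 15187 genes (8.52%) were called, 580 higher and 714 lower. One of these libraries, D6 replicate 2 at PND90, carries pituitary transcripts, with Prl, the prolactin gene, at 201208 CPM against 0 to 6.62 CPM in the other 14 at PND90. Without it 2834 of 15283 genes (18.5%) were called. Of the 596 genes higher in vehicle rats, 567 (95.1%) had the same sign in DES rats, against 56.5% of all genes, and 177 were called there. Of the 350 lower genes, 336 (96%) had the same sign, against 43.5% of all genes, and 197 were called. Without D6 replicate 2 these shares were 97.1% and 99.1%, with 342 and 301 called.

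The median rise was lower in DES rats than in the vehicle rats, by whose values the genes were called, and the interaction test called none of them. The median log2 fold change of the 596 higher genes was 0.50 in vehicle rats, which chose them, and 0.20 in DES rats, while that of the 350 lower genes was -0.46 and -0.42. Myelin genes fell in 12 of 23 cases in DES rats (21 of 23 without D6 replicate 2) and cholesterol synthesis genes in 9 of 23 (16 of 23). Of all genes tested in DES rats, 1583 of 15283 fell without D6 replicate 2, and 4.7% fell with it included. Fa2h fell by 1.43 on the log2 scale there (adjusted p = 0.00159 by edgeR) and Hmgcs1 by 0.60 (adjusted p = 0.0258 by edgeR). Alox15 fell by 2.15, and Qdpr rose by 0.76, next to 0.79 in vehicle rats. All 10 genes with the largest rises had a positive log2 fold change in DES rats, between 0.34 and 0.85, and 5 were called. Kiss1r gave 0.47 and was not called (adjusted p = 0.179 by edgeR), but it was called without D6 replicate 2 (0.56 ± 0.13). In the test of the difference itself, the interaction of DES and age, 0 of 15318 genes (0%) were called by edgeR and 0 by DESeq2, with 667 at an unadjusted p under 0.05 by edgeR. For the highest dose alone, D12, 419 of 15004 genes (2.79%) were called, 380 of them with a more negative change than in vehicle rats.

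**Figure D5:**
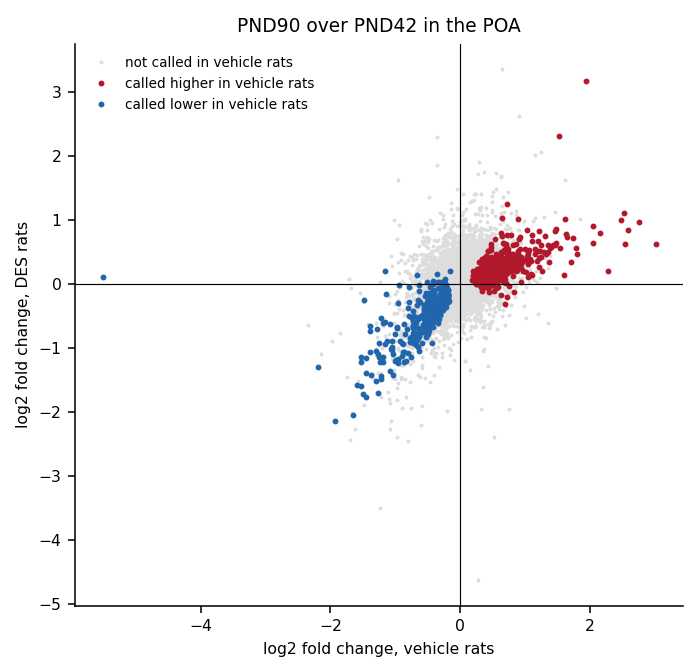
Log2 fold change of PND90 over PND42 in the POA of DES rats (vertical axis, 15 and 15 libraries) against that in vehicle rats (horizontal axis, 5 and 5 libraries), each point a gene. Of the genes called higher in vehicle rats 95.1% lie above 0 on the vertical axis, and of those called lower 96% lie below it. The DES libraries include D6 replicate 2 at PND90, which carries pituitary transcripts.

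In the MBH of control rats, 1817 of 14807 genes (12.3%) were called between the libraries labelled PND90 and those labelled PND42. The test of the difference between tissues, POA minus MBH, called 1353 of 15125 genes (8.95%), 662 positive and 691 negative. All PND90 rats and 4 of the PND42 rats gave both tissues, and with the rat as a block 745 genes were called. Because the libraries labelled MBH PND90 had the age profile of PND22, a difference between tissues cannot be told apart from a difference of these libraries from their label. Gpr17 shows the pattern. It fell in the POA by 0.75 on the log2 scale and was higher by 1.63 in the libraries labelled MBH PND90, whose mean of 123 CPM was near the 128 CPM of POA controls at PND22. Of the 10 genes with the largest falls in the POA, all 10 had a difference called between tissues, and of the 10 with the largest rises 4 had. Myelin genes differed in 12 cases with a more negative change in the POA and in 2 cases with a more positive one, and cholesterol synthesis genes in 9 and 0 of 23. Col20a1 (-2.86 ± 0.23), Pnlip, Adam19 and Dusp15 stood beside Gpr17 among the 5 negative differences with the smallest p, and Qdpr (1.52 ± 0.09), Ptpn11, C3, Paqr6 and Gsta1 were the 5 positive ones.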

How the data were processed

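Polyadenylated RNA of the POA and MBH of female rats was sequenced from stranded libraries as read pairs. The authors demultiplexed reads with bcl2fastq 2.20, used STAR for alignment to Rnor_6.0 and took featureCounts totals for each Ensembl gene, per the labels and the study's methods. They deposited raw counts, whole numbers that had not been normalized, as a table for each tissue with a column for each library; gene names were taken from its symbol column. Strand and multiple-mapping settings of the counting are not given in the sources used here, so genes with near-identical copies, overlapping genes and antisense genes are uncertain. No column lacked a sample.

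Counts were tested in R 4.3.3 with edgeR 4.0.16: TMM scaling, filterByExpr at a minimum count of 10, quasi-likelihood fits and two-sided tests, Benjamini-Hochberg adjustment. Standard errors were derived from the F statistic (absolute log2 fold change over its square root). Levels are CPM before TMM scaling. The control comparison used only its 10 libraries and no block; replicate numbers name different rats at the 2 ages. The DES comparison averaged 3 doses over 30 libraries. Interactions were fitted over 20 and 40 control or DES libraries. P-values measure the spread between single rats. The litters of these rats are not given in the sources used here and were not modelled. A count of 0 allows up to 3 counts; such limits cover counting error alone. Whole transcriptomes were compared by the pseudo-F of distances in log2 CPM (prior count 2). Alternatives were DESeq2 1.42.0, other scalings, filters and fits, and leaving out each library.

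Named genes were the 10 with the largest change per direction (symbol, mean log2 CPM of at least 1, ages without overlap), up to 4 called members of each of 20 biology lists, 10 reproductive genes, up to 3 abundant members of each of 20 marker lists, and 5 per direction of the tissue interaction. Other list members are named as called or not, and some genes that the rule names are not reported here. The members and lists were chosen with earlier results of these data known. The tests were checked on simulated data. Promoter letters came from RefSeq (GRCr8), matched by symbol.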

Additional observations from a re-analysis of the deposited data

Results flagged for a closer look

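In 5 cases 1 library lay far from the other 4 of its age, by Dixon's test at the 95% level over 144 groups of 5 values; chance flags about 1 in 20 groups. The values were 58.3 CPM for Idi1 in PND42 replicate 3 and, at PND90, 15.6 CPM for Eln and 1.48 CPM for Cyp19a1 in replicate 3, and 226 CPM for Slc4a4 and 11.0 CPM for Kiss1 in replicate 1.

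The change with age differed between POA and MBH controls for 1353 genes by the test of the interaction, which rests on libraries labelled MBH PND90 that have the age profile of PND22. Among the named genes the difference of log2 fold changes, POA minus MBH, was 1.52 for Qdpr, 2.39 for C3, 2.08 for Gsta1, 0.72 for Ptpn11 and 1.19 for Paqr6. It was -2.64 for Pnlip, -1.65 for Adam19, -2.39 for Gpr17, -2.86 for Col20a1 and -1.44 for Dusp15. The cause was not tested.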

How the results depend on the processing

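Of the alternatives for the 946 calls, DESeq2 gave 1483 genes and a test against a fold change of 1.2 gave 174, with 8 cholesterol synthesis genes lower. A fit over all 21 POA groups gave 6 myelin genes lower. The tissue interaction gave 745 genes with the rat as a replicate block. The DES comparison gave 2834 genes without D6 replicate 2, and the interaction of D12 alone gave 419. Leaving out 1 library gave 445 to 1241 calls in vehicle rats, 15 to 16 myelin and 15 to 17 cholesterol synthesis genes lower, 951 to 2834 calls in DES rats, 1018 to 1683 for the tissue interaction and 0 for the DES interaction. In DES rats the count was 1982 without D6 replicate 4 at PND90. The pseudo-F was 1.74 to 2.78 when 1 library was left out. With a variance-stabilizing transformation it was 3.44 (exact permutation p = 0.0159). Its exact permutation p passed 0.05 in 3 of 10 cases, at 0.0556 without PND42 replicate 4, 0.0635 without PND90 replicate 1 and 0.0714 without PND90 replicate 5. No other alternative moved these counts by over 1.5 times. The log2 fold change turned its sign for 2 genes that were not called in the comparison. Esr1 gave 0.001553 with no filter, -0.1802 to 0.1341 without 1 library, among them 0.05581, 0.0854, 0.02686, 0.00738 and 0.1341, and 0.09602 without PND42 replicate 5 and PND90 replicate 3; Tacr3 gave -0.26 to 0.01482 without 1 library, among them 0.001008 and 0.01276. The causes were not tested. Depth limits genes near 1 CPM, where 1 CPM is 15.6 to 20.7 counts in these libraries.

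The replicate numbers do not pair the rats of the 2 ages: the deviations of same-numbered libraries correlated at 0.077, -0.125, 0.025, 0.160 and 0.314. With the replicate block 987 genes were called, 16 myelin and 17 cholesterol synthesis genes lower, and 999 in DES rats with the block within dose.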

Other observations

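Outside the rule for named genes, and chosen after their values were seen, Npbwr1, Tmem158 and Sp9 had larger rises than any named gene at levels near 1 CPM. Npbwr1, a neuropeptide receptor, was at 0.0620 to 0.257 CPM at PND42 and at 1.05 to 1.37 CPM at PND90 (log2 fold change 2.58 ± 0.31, edgeR adjusted p = 0.000709). It was at 1.09 ± 0.27 CPM (SD, n = 5) at PND22. Tmem158 had a log2 fold change of 2.76 ± 0.35 and Sp9, a transcription factor of forebrain GABA neurons, of 2.27 ± 0.42. In DES rats the log2 fold changes were 0.84, 0.96 and 0.20.

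The called gene with the largest fall, LOC103689961, was at 62.4 and 73.8 CPM in 2 of the PND42 libraries and at 0.192 to 1.43 CPM in the other 3. At PND90 it was at 0.178 to 1.21 CPM in all 5 (log2 fold change -5.51 ± 1.43, edgeR adjusted p = 0.038). Its log2 fold change in DES rats was 0.11.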
